A study of Mus musculus with 16 samples.

Results

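The imprinted Grb10 locus was followed CpG by CpG in all 16 RRBS libraries of the series. Its CpGs were taken by position, as those of chr11:11825000-11945000 in mm9, and both strands of a CpG were counted together. Of 1320646 CpGs with at least 10 reads in at least 1 library, 237 lay in this stretch, and 36 of the 237 were covered in all 16 libraries. The locus was chosen because its methylation differed between OP-mESCs and YP-mESCs, so every value of those libraries is given as a description with no test.

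RRBS cuts DNA with a restriction enzyme to enrich CpG-rich fragments and treats them with bisulfite, which leaves methylated cytosines intact, so that the share of reads with a cytosine is the methylation level of a CpG. All samples derived from E14, a 129/Ola mouse embryonic stem cell line grown in serum and LIF, and each condition had 2 replicates. YP-mESCs had been kept for 14 passages and OP-mESCs for about 70. OP-S33Y #1 and OP-S33Y #2 were 2 single clones made from YP-mESCs that overexpress the stable S33Y mutant of β-catenin and were then grown for many passages as OP-mESCs were. The other 4 conditions came from YP-mESCs transduced with a control shRNA (mESC shCtrl) or an shRNA against β-catenin (mESC shβcat #1), and from embryoid bodies grown from these cells without LIF and taken at day 8 (EB shCtrl and EB shβcat #1). The study calls the 2 replicates of YP-mESCs, OP-mESCs and the OP-S33Y clones biological. The labels do not say whether replicates were separate cultures, and the tests measure the spread between these libraries, which may be technical.

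Grb10 encodes an adaptor protein that binds the insulin and IGF1 receptors and restrains growth. It is imprinted: in most tissues it is transcribed from the maternal allele, from its main promoter, and in neurons from the paternal allele, from promoters near its imprinting control region (ICR). That ICR receives its methylation in the oocyte, so that the maternal copy is methylated and the paternal copy is not, whereas the main promoter is unmethylated on both. ZFP57, a zinc finger protein that binds a methylated motif, and its partner KAP1 keep such marks in embryonic stem cells.

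The ICR was chr11:11925127-11927100 of mm9, as the study's own table of ICRs gives it. It lies inside Grb10 (ENSMUSG00000020176.10, chr11:11830511-11938686, minus strand), over the first exons of the transcripts Grb10-001 (11925841 to 11926327) and Grb10-002 (11926665 to 11926735) and the introns around them. Its 1974 bases hold 162 CpGs, and 91 of these had reads in at least 1 library, 29 in exons and 62 in introns. The most upstream annotated start of Grb10, that of Grb10-003, is at 11938686. Another start at 11937404, shared by 4 of the 12 annotated transcripts, lies 10304 bp beyond the ICR. Windows of 1 kb on each side of both starts were described, and the second window was added after the annotation had been read. They held 128 CpGs around the shared start and 24 around the most upstream start, of which 20 are in both. The rest of the gene had 11 covered CpGs, and 3 more lay beyond its 3′ end.

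Some sequences of the ICR are shown on the strand of the gene, from the mm9 reference. The first is an intronic stretch between both exons, chr11:11926355-11926474, minus strand, with its 25 CpGs in capitals. It is shown for its density of CpGs and because it repeats itself: shifted by 21 bases, 67.7% of 99 bases were identical.
Intronic stretch: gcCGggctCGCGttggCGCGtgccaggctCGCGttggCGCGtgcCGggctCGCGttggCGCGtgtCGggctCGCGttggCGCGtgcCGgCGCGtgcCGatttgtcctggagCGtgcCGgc
The other pair holds the TGCCGC hexamer that ZFP57 is known to bind, searched on both strands (TGCCGC or GCGGCA, in capitals), at the matches whose CpG was read in all 16 libraries. They are chr11:11926216-11926245 and chr11:11926238-11926267, minus strand, in the annotated first exon of Grb10-001.
TGCCGC match with the CpG at 11926231: attcgtctctgaGCGGCAcggccctgtcgg
TGCCGC match with the CpG at 11926251: cgcgtgccggccTGCCGCgatcattcgtct
The ICR held 4 matches. Of 60149 windows of the same length on chromosome 11, 13.7% held at least 1 match and 0.143% at least 4. The windows were not matched to the ICR in CpG density, and the hexamer itself holds a CpG, so no enrichment is read from these shares. A match is only a match of letters. The CpGs of the other matches, at 11926084 and 11926124, had no reads.

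The ICR was close to unmethylated in OP-mESCs, about 1 read in 3 was methylated in YP-mESCs, and in the other 6 conditions the levels were near 50%. The level of a library was the mean percentage of its covered CpGs. In YP-mESCs it was 31.1% and 34.5% in replicates 1 and 2, over 41 and 51 CpGs. In OP-mESCs it was 2.62% and 1.36%, over 38 and 28 CpGs. The OP-mESC libraries lay far below every other library and did not overlap them. OP-S33Y #1 had 53.9% and 42.4% over 41 CpGs each, the widest gap between replicates. OP-S33Y #2 had 53.6% and 51.2%, over 41 and 38 CpGs. Both clones lay above both YP-mESC libraries, from whose cells they had been made. The levels were 51.9% and 54.95% in mESC shCtrl and 58.0% and 49.95% in mESC shβcat #1, over 81 to 84 CpGs. In EBs they were 55.1% and 53.0% with shCtrl and 54.4% and 56.3% with shβcat #1, over 77 to 81 CpGs. These 8 libraries overlapped each other in all 4 conditions. The files hold no allele information, so a level near 50% with 1 methylated allele in every cell and one with some cells fully methylated cannot be told apart.

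Condition means in rising order were 1.99% ± 0.89 (SD, n = 2) in OP-mESCs, 32.8% ± 2.4 in YP-mESCs, 48.1% ± 8.1 in OP-S33Y #1, 52.4% ± 1.7 in OP-S33Y #2, 53.4% ± 2.2 in mESC shCtrl, 54.0% ± 5.7 in mESC shβcat #1, 54.1% ± 1.5 in EB shCtrl and 55.3% ± 1.4 in EB shβcat #1. Libraries did not overlap between the first and the second, or between the second and the third. From OP-S33Y #1 upwards, every pair of neighbours in this order overlapped and differed by less than the larger SD. The ICR of OP-mESCs lay 30.8 points below that of YP-mESCs, OP-S33Y #1 lay 15.3 points above YP-mESCs and OP-S33Y #2 19.6 points above. The difference between OP-S33Y #1 and YP-mESCs was 9.60 points without OP-S33Y #1 replicate 1. Against OP-mESCs, the clones were higher by 46.1 and 50.4 points. All these differences share the YP-mESC or OP-mESC libraries.

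**Figure D1:**
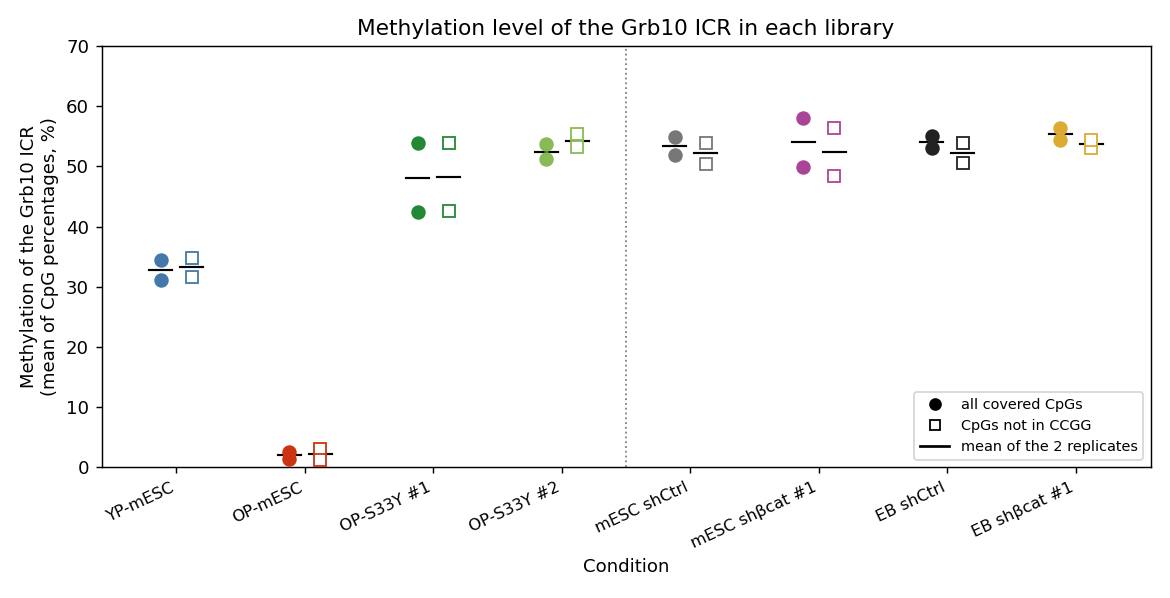
Methylation of the Grb10 ICR, as the mean percentage of its covered CpGs, in each of the 16 libraries (filled circles, all CpGs; open squares, CpGs not in CCGG; bars, mean of 2 replicates). The dotted line separates the 8 libraries without from the 8 with an shRNA; OP-mESC libraries are at 2.62% and 1.36%, YP-mESC libraries at 31.1% and 34.5%, and the others between 42.4% and 58.0%.

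The reads behind these levels numbered 1094 to 1933 over the ICR in the YP-mESC, OP-mESC and OP-S33Y libraries and 2116 to 4119 in the others, added up from its CpGs. Since 1 read can cover several CpGs, there are fewer separate reads than that, and intervals cover counting error only. In OP-mESC replicate 1, 26 of 1094 reads were methylated, or 2.38% with a 95% Wilson interval of 1.63% to 3.46%, and in replicate 2, 22 of 1547, or 1.42% with an interval of 0.941% to 2.14%. The read-weighted levels of YP-mESCs were 30.6% (28.4% to 32.8%) and 34.0% (31.6% to 36.4%).

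The CpGs within the ICR lay close together in OP-mESCs and YP-mESCs and spread more widely in the others. The SD over CpGs covered in both replicates was 1.03 points in OP-mESCs and 3.61 in YP-mESCs. It was 7.47 in OP-S33Y #1, 10.2 in OP-S33Y #2, 9.27 in mESC shCtrl and 9.33 in mESC shβcat #1. In EBs it was 11.1 with shCtrl and 9.71 with shβcat #1. Without CpGs in CCGG the SD was 1.01 in OP-mESCs, 2.94 in YP-mESCs and 6.92 to 9.82 in the other conditions. Levels near 0% leave little room for spread, so the SD of OP-mESCs does not measure uniformity. The CpGs covered also differed between conditions, from 28 to 81 in number. In YP-mESCs the 41 CpGs covered in both replicates ranged from 22.1% to 38.3% with a median of 32.5%, and none was below 10%. In OP-mESCs all 28 such CpGs were below 10%, from 0% to 3.49%, with a median of 0.757%. In mESC shCtrl, 75 of 81 CpGs were between 30% and 70%, with a full range of 31.4% to 81.4%. In OP-S33Y #1, 40 of 41 were between 30% and 70%. Of the 28 CpGs compared between OP-mESCs and YP-mESCs, 26 were lower by more than 25 points in OP-mESCs and all 28 lay between 37.6 and 21.3 points below. Over the genome, 3.38% of 365703 CpGs were lower by more than 25 points, but since the locus was chosen on these libraries nothing is read from these shares. The remaining signal in OP-mESC replicate 1 was highest in the intron beyond the second exon, with 17.9% at the CpG at 11926800 and 20% at the CpG at 11926835. OP-mESC replicate 2 had no reads there. Over the 28 CpGs of the ICR covered in all 16 libraries, the OP-mESC libraries had 0.704% and 1.36% and the YP-mESC libraries 30.1% and 34.7%.

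**Figure D2:**
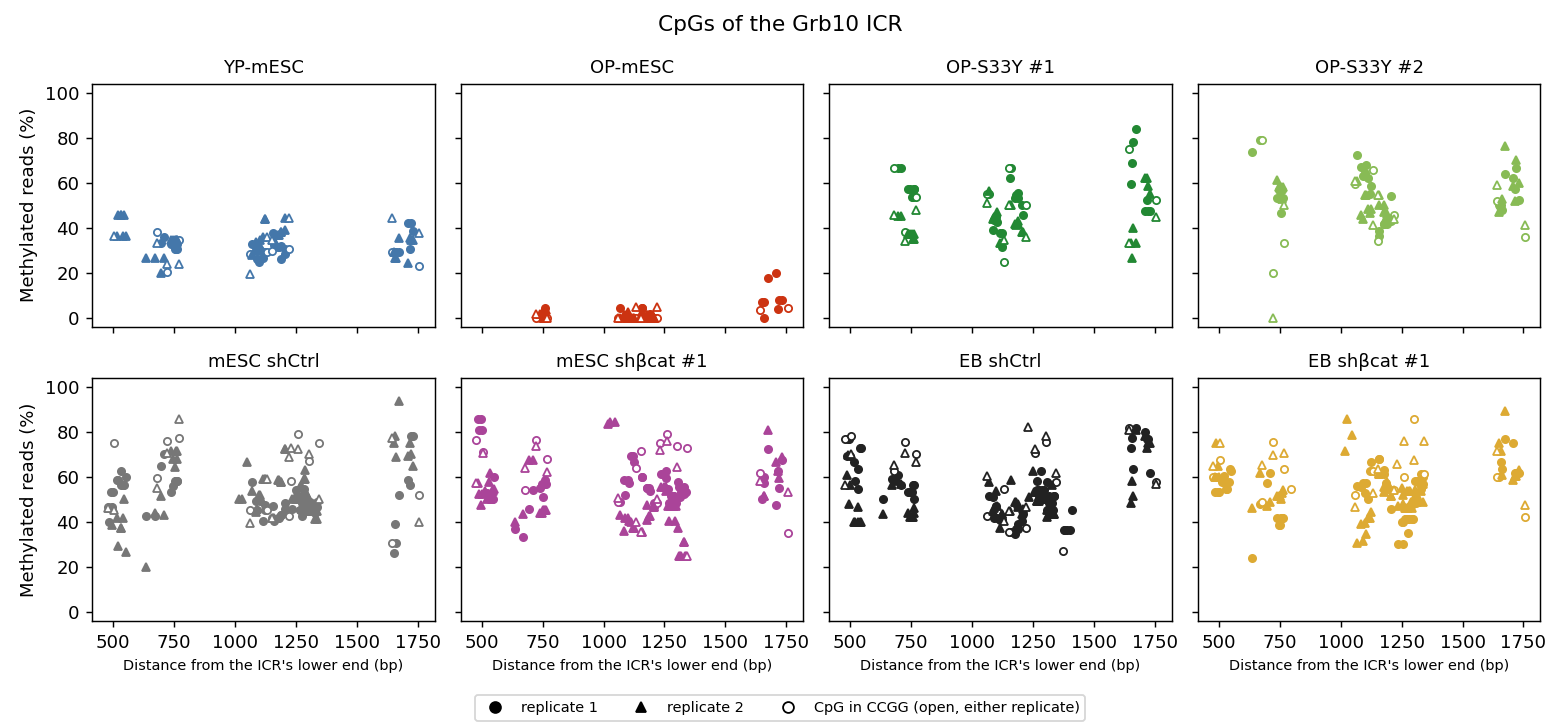
Percentage of methylated reads at each covered CpG of the Grb10 ICR against the distance in bp from the ICR's lower end, in the 8 conditions (circles, replicate 1; triangles, replicate 2; open, CpG in CCGG). All CpGs of OP-mESC libraries lie at or below 20%, and in YP-mESCs the 41 CpGs covered in both replicates have a median of 32.5%.

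Among the 28 CpGs of the ICR covered in all 16 libraries, the lowest over the 8 conditions was the CpG at 11926217, in the first exon of Grb10-001. It had 26.2% and 29.5% in YP-mESCs and 0% and 1.39% in OP-mESCs. Its means in the other conditions ran from 44.1% in OP-S33Y #1 to 53.5% in OP-S33Y #2. The highest was the CpG at 11925896, within a CCGG of the same exon, with 34.5% and 23.8% in YP-mESCs and 0 methylated of 22 and 61 reads in the OP-mESC libraries. It had 77.1% and 85.7% in mESC shCtrl. At the CpGs of the TGCCGC matches printed above, OP-mESCs had 0% in both replicates. The CpG at 11926231 had 30% and 34.4% in YP-mESCs, on 80 and 61 reads, and its condition means ran from 44.5% to 61.2% in the 6 other conditions. The CpG at 11926251 had 29.4% and 44.0% in YP-mESCs, on 34 and 25 reads, with means of 32.3% to 55.6% elsewhere. The CpGs of the intronic stretch printed above had reads only in the 8 libraries with an shRNA. There, the intron between both exons had 27 to 29 covered CpGs and levels of 44.1% to 56.1%, and in the other libraries 3 CpGs, none of them in the printed stretch.

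The 2 sets of libraries differed in one property that touches these values. In the 8 libraries with an shRNA, CpGs within the sequence CCGG read higher than neighbours of low methylation. Over the genome, CpGs in CCGG whose neighbours within 50 bp averaged at most 5% had a mean of 8.80% to 14.1% in those libraries and of 0.698% to 1.12% in the other 8. Where the neighbours averaged 30% to 70%, as in most of the ICR outside OP-mESCs, CpGs in CCGG had 56.9% to 58.3% in the EB libraries, 52.2% to 53.0% in the shRNA mESC libraries and 50.9% to 52.9% in the other 8, with neighbours at 50.2% to 53.0% in all 16. CCGG is the recognition sequence of MspI, an enzyme in common use for RRBS, but the enzyme used is not given in the sources used here. The labels name the same pair of library kits for every sample. The sets also differed in coverage, with 77 to 84 against 28 to 51 CpGs of the ICR. In the ICR, the CpGs in CCGG had 56.8% to 65.0% in the shRNA libraries and the others 48.5% to 56.4%. Without CpGs in CCGG, condition means were 33.2% in YP-mESCs, 2.13% in OP-mESCs, 48.2% and 54.3% in OP-S33Y #1 and #2, and 52.2%, 52.4%, 52.3% and 53.7% in mESC shCtrl, mESC shβcat #1, EB shCtrl and EB shβcat #1. The ICR of mESC shCtrl lay 20.6 points above that of YP-mESCs, and 19.0 points without CpGs in CCGG. Since these conditions belong to different sets, the condition and the set of libraries cannot be told apart.

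Silencing of β-catenin gave no difference of the ICR that passed the test, in mESCs or in EBs. For each ICR of the study's table with CpGs covered in all 4 libraries compared, 19 or, between the clones, 14 ICRs, the reads of those CpGs were summed and entered a quasi-binomial F test with one overdispersion for all ICRs and Benjamini-Hochberg adjustment. In mESCs, the read-weighted level over 81 CpGs was 53.8% with shβcat #1 and 53.6% with shCtrl. The difference was 0.22 points with a 95% interval of -4.19 to 4.63 (adjusted p = 0.932), and it was -2.00 points without mESC shCtrl replicate 1 and -4.39 without mESC shβcat #1 replicate 1. In EBs the level over 69 CpGs was 55.1% with shβcat #1 and 53.7% with shCtrl, a difference of 1.44 points (interval -2.90 to 5.79, adjusted p = 0.951). Over the 28 CpGs covered in all 16 libraries, EB shβcat #1 had 55.2% and 50.7% and EB shCtrl 46.3% and 48.2%, which do not overlap, and the read-weighted difference was 4.63 points (adjusted p = 0.351, quasi-binomial F test). In mESCs it was -2.36 points over these CpGs. For the test of the interaction, the 69 CpGs covered in all 8 libraries were taken and replicates were averaged, which gave effects of -1.49 points in mESCs and 1.63 in EBs. The difference of 3.12 points between them did not pass (adjusted p = 0.941, quasi-binomial model). Differences anywhere within these intervals remain possible with 2 libraries per condition. For a single value, exact permutation of 2 libraries against 2 gives no p below 0.33.

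Differentiation gave no difference of the ICR that passed the test, with either shRNA. EB shCtrl had 53.6% and mESC shCtrl 53.7% over 75 CpGs, a difference of -0.11 points (interval -4.42 to 4.20, adjusted p = 0.9992 in the quasi-binomial F test). Without mESC shCtrl replicate 2 it was 1.82 points and without EB shCtrl replicate 2 it was 0.769. Over the 28 CpGs covered in all 16 libraries, mESC shCtrl had 50.3% and 59.5%, both above the EB shCtrl libraries, and the read-weighted difference was -5.58 points (adjusted p = 0.351), so this difference depends on which CpGs are taken. With shβcat #1, EBs had 54.8% and mESCs 53.6% over 73 CpGs, a difference of 1.22 points (interval -3.29 to 5.73, adjusted p = 0.801). It was 6.24 points without mESC shβcat #1 replicate 1 and -2.83 without mESC shβcat #1 replicate 2.

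Between both clones, OP-S33Y #2 had 51.6% and OP-S33Y #1 46.6% over 38 CpGs. The difference of 5.02 points (interval -0.76 to 10.8) did not pass the test (adjusted p = 0.227, quasi-binomial F test over 14 ICRs), and it rested on one library. Without OP-S33Y #1 replicate 1 it was 9.16 points (adjusted p = 0.00489), and without OP-S33Y #1 replicate 2 it was -1.73 points.

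**Figure D3:**
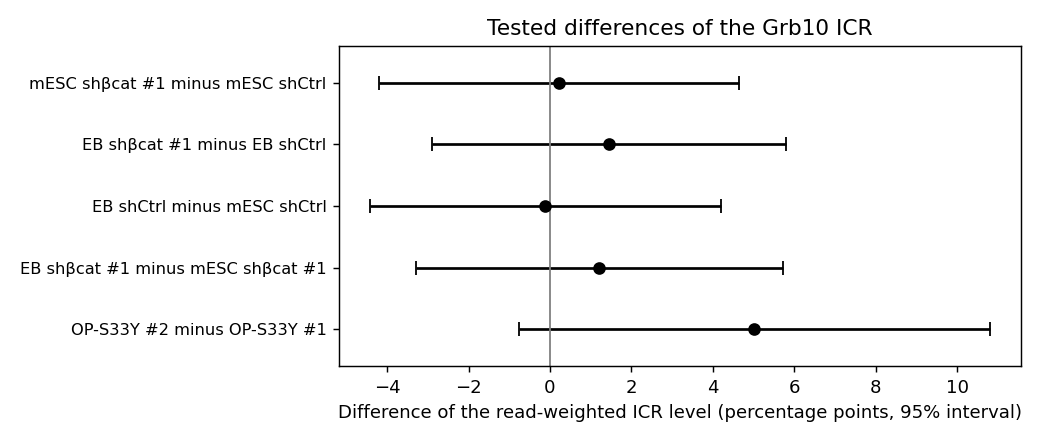
Differences of the read-weighted Grb10 ICR level in percentage points for the 5 tested comparisons (points) with 95% intervals from the quasi-binomial model (bars). All 5 intervals include 0, and the highest point, 5.02, is that of OP-S33Y #2 minus OP-S33Y #1.

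Single CpGs of the locus were tested in the same comparisons with a binomial model of reads, an overdispersion shared by all CpGs of the genome and Benjamini-Hochberg adjustment over all of them. Calls needed a difference of over 25 points besides an adjusted p under 0.05. With shβcat #1 against shCtrl in mESCs, 0 of 179 CpGs of the locus were called, against 0.107% of 915436 CpGs of the genome. At an unadjusted p under 0.05 there were 4, where the genome had 4.83%. In EBs the same comparison called 0 of 138, against 0.082% of the genome, and 11 had an unadjusted p under 0.05 (7.78% in the genome). For OP-S33Y #2 against OP-S33Y #1 it called 0 of 94, against 0.309%, and 9 had an unadjusted p under 0.05 (5.52% in the genome). Fisher's exact test of summed reads also called 0 in each of these. Where so few CpGs are called in the genome, 0 among the CpGs of the locus does not set it apart.

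Between EBs and mESCs, many CpGs of the genome were called and 1 of this locus. With shCtrl, 6.39% of 858530 CpGs were called (6.31% higher in EBs), and 1 of 142 in the locus. At an unadjusted p under 0.05 there were 13 in the locus and 16.6% in the genome. With shβcat #1, 6.57% of 863446 were called (6.23% higher in EBs), and 0 of 166 in the locus by the binomial model and by Fisher's exact test, with 26 at an unadjusted p under 0.05, against 23% in the genome. The single call was the CpG at 11938759, just upstream of the most upstream start. It had 68.0% and 74.3% in EB shCtrl and 39.3% and 38.7% in mESC shCtrl, on 25 to 35 reads, a difference of 32.1 points (adjusted p = 0.0112, binomial model). The call was kept without EB shCtrl replicate 1 and lost without each of the other 3 libraries. Without mESC shCtrl replicate 2, the single call was instead the CpG at 11926770 of the ICR, higher by 50.8 points.

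On average, the window of the shared start had little methylation in any library, apart from CpGs in CCGG of the shRNA libraries. Over all its CpGs, the window of the most upstream start had condition means from 5.68% in OP-S33Y #1 to 24.3% in EB shβcat #1, where both replicates had a value. Which of the starts is that of the main promoter was not tested. In the window of the shared start, the CpGs not in CCGG had 0% to 1.00% in the YP-mESC, OP-mESC and OP-S33Y libraries and 0.604% to 6.58% in the shRNA libraries. Single CpGs not in CCGG reached 50% in EB shβcat #1 replicate 1 and 36.4% in EB shCtrl replicate 1, and at most 13.3% in the libraries without an shRNA. OP-mESC replicate 1 had 0 methylated reads of 1037 in the whole window, added up from its CpGs. If each were a separate read, this would allow a level of up to 0.289%. Since 1 read can cover several CpGs, the level allowed is higher than that. OP-mESC replicate 2 had 0.379%, but on 8 CpGs only. The CpGs in CCGG of the window had at most 2.05% in the first set and 10.8% to 30.2% in the second. One of them, at 11937492, was chosen for its high values and is shown with its CCGG in capitals (chr11:11937478-11937507, minus strand).
CCGG with the CpG at 11937492: gcaggaaaagcggCCGGgggaggaggaggc
It was read in 7 of the 8 shRNA libraries, on the minus strand alone, at 76.5% to 100% of 15 to 36 reads, while its neighbours not in CCGG within 50 bp averaged at most 3.09%. None of the other 8 libraries had reads at this CpG.

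Within the shRNA libraries, the window of the shared start read slightly higher in EBs, a difference that was described and not tested. Over the 46 CpGs of the window of the shared start that are not in CCGG and were covered in all 8 libraries, the level was 0.340% and 1.67% in mESC shCtrl and 0.824% and 0.964% in mESC shβcat #1. It was 3.24% and 2.93% in EB shCtrl and 6.11% and 4.05% in EB shβcat #1. The EB libraries lay above all mESC libraries of this set, by a few points. Among single CpGs of the locus, 10 of 166 had an adjusted p under 0.05 for EB shβcat #1 against mESC shβcat #1 with no minimum of the difference, 9 of them higher in EBs and 1 lower. In the genome this was 13.2%, with 10.3% higher and 2.91% lower. The highest of these differences within the shared window was at the CpG at 11937816, with 29.6% and 17.9% in EB shβcat #1 and 2.13% and 0% in mESC shβcat #1. For the shCtrl libraries, 1 of 142 passed without a minimum, the CpG at 11938759, against 8.97% of the genome.

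Further upstream, around the most upstream start, 4 CpGs outside the shared window were not unmethylated. Their mean was 72.6% in YP-mESC replicate 2, 15.0% in OP-mESC replicate 1, and 43.1% in OP-S33Y #1 replicate 1, and 52.6% in each OP-S33Y #2 library. YP-mESC replicate 1, OP-mESC replicate 2 and OP-S33Y #1 replicate 2 had no reads there, so these conditions rest on 1 library and 10 to 30 reads per CpG. In the shRNA libraries the mean was 39.0% and 50.4% in mESC shCtrl, 52.6% and 51.1% in mESC shβcat #1, 68.8% and 72.7% in EB shCtrl, and 70.3% and 73.5% in EB shβcat #1. All 4 EB libraries lay above all 4 mESC libraries of that set. The CpG at 11938759, which is not in CCGG, had 66.7% and 82.4% in EB shβcat #1 and 47.5% and 48.8% in mESC shβcat #1 (adjusted p = 0.0725, binomial model). The CpG at 11938774, which is in CCGG, had 84.6% and 88.2% in EB shβcat #1 and 57.5% and 67.4% in mESC shβcat #1 (adjusted p = 0.0375). CpGs in CCGG with neighbours at intermediate levels also read higher in EBs over the genome, as given above.

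**Figure D4:**
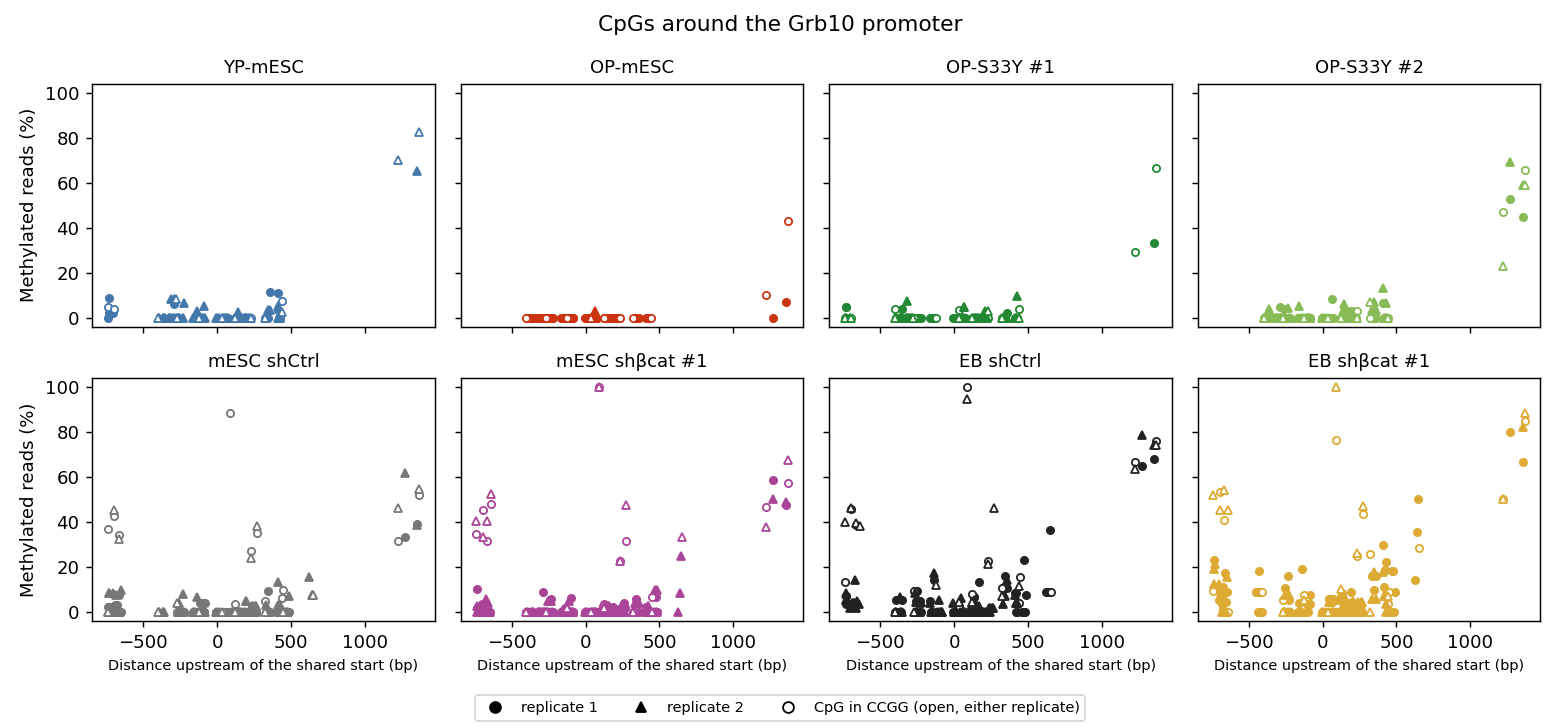
Percentage of methylated reads at CpGs around the Grb10 promoter against the distance in bp upstream of the start shared by 4 transcripts, in the 8 conditions (circles, replicate 1; triangles, replicate 2; open, CpG in CCGG). CpGs around the shared start lie at or below 13.3% in the libraries without an shRNA, while CpGs in CCGG of the shRNA libraries and some others of the EB libraries lie higher, and the 4 CpGs at the right, near the most upstream start, are intermediate to high except in OP-mESCs, where 3 of them are at or below 10%.

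The gene body was methylated, with one intronic exception. Of its 11 covered CpGs, the 8 between 11855350 and 11911927 had mean levels of 82.4% to 96.8% in every library, over the 5 to 8 of them covered there, and OP-mESCs had 85.7% and 86.1%. The other 3, at 11848463, 11848487 and 11848512, lie in an intron near the 3′ end. Their mean was 27.3% and 16.7% in YP-mESCs and 30.5% and 30.6% in OP-mESCs. The OP-S33Y clones had 24.4% and 17.9%, and 31.1% and 30.9%. The shRNA libraries were higher, with 55.5% and 48.2% in mESC shCtrl and 76.3% and 77.7% in mESC shβcat #1. In EBs they had 79.2% and 76.3% with shCtrl and 66.6% and 90.4% with shβcat #1. The middle CpG, which is not in CCGG, was also split by set, with 27.7% to 46.7% in the first 8 libraries and 56.5% to 90.8% in the shRNA libraries, so the set and the condition cannot be told apart here either. Within the shRNA mESCs, the CpG at 11848512 had 77.8% and 88.9% with shβcat #1 and 48.0% and 35.3% with shCtrl, on 17 to 36 reads. The groups did not overlap, but the difference of 41.7 points did not pass the test (adjusted p = 0.0995, binomial model), and the CpG was singled out after its values were seen. Beyond the 3′ end, the 3 CpGs had 81.8% or more in the 4 shRNA libraries that covered them.

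Among ICRs with a level in at least 14 libraries, the 3 most like Grb10 across libraries were Plagl1, Inpp5f and Impact, with a Pearson's r of 0.972 over 16, 0.928 over 15 and 0.864 over 16 libraries. Nnat, with a level in 13 libraries, had an r of 0.972 over those. Libraries of a condition share cells, and the 8 libraries of a set share the properties above, so these values are a description. Each r also includes OP-mESC and YP-mESC libraries, which led to the choice of this locus and hold the lowest levels of its ICR. Plagl1 encodes a zinc finger protein that restrains the cell cycle, Inpp5f an inositol phosphatase, and Impact a regulator of translation. All 3 are maternally methylated ICRs, as is that of Grb10. Their OP-mESC means were 4.22%, 1.39% and 0.0521%, against 66.98%, 23.6% and 33.8% in YP-mESCs. Plagl1 stood at 91.3% or more in the 6 other conditions, above the 48.1% to 55.3% of Grb10 there. In OP-mESC replicate 1, Grb10 was the 8th from below of 18 ICRs, whose median level was 3.60%. In OP-mESC replicate 2, Grb10 was the 2nd from below of 12, with a median of 30.3%. The ICRs with a level differed between these libraries. Gpr1, H13, Nnat, Peg10 and Igf2r, at 0% to 4.36% in replicate 1, had no level in replicate 2, nor had Herc3 (22.6% in replicate 1). The ranks and medians therefore cannot be compared between both replicates. In YP-mESC replicates 1 and 2, Grb10 was the 3rd and the 7th from below of 18, with medians of 37.4% and 40.2%. In mESC shCtrl replicate 1, Grb10 was the 9th from below of 19, with a median of 52.4%.

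**Figure D5:**
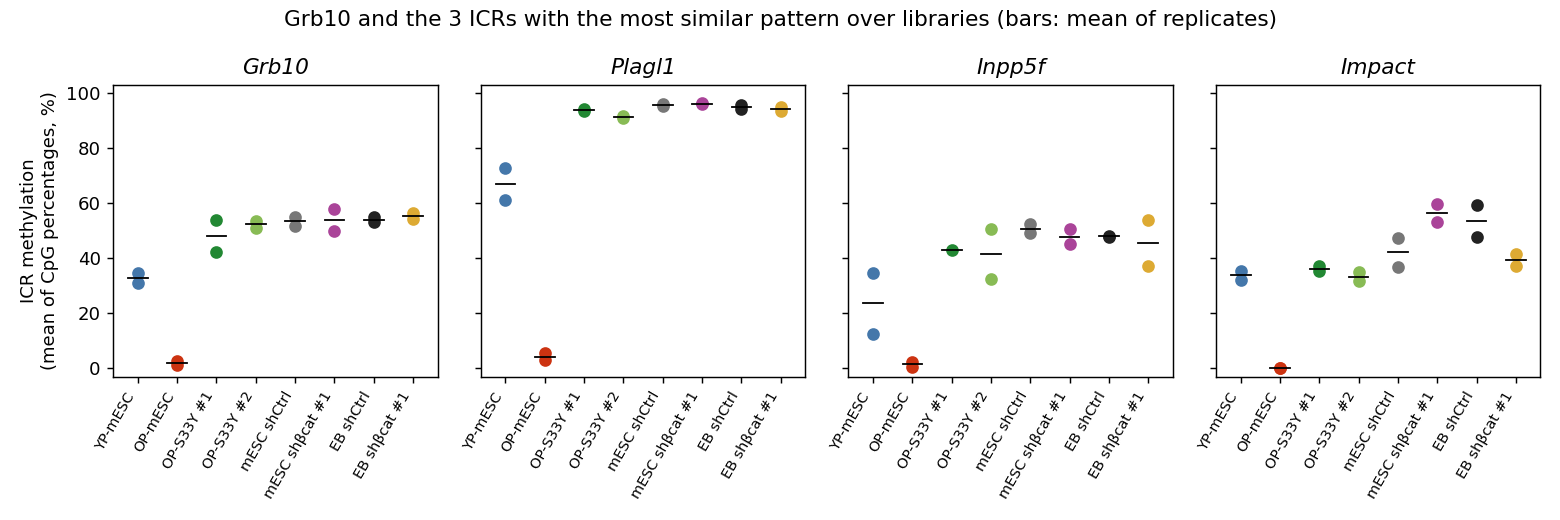
ICR methylation, as the mean percentage of covered CpGs, of Grb10 and, among ICRs with a level in at least 14 libraries, of the 3 with the highest Pearson's r with it, in each library (points) with the mean of replicates (bars), by condition. All 4 were lowest in OP-mESCs, at 1.99%, 4.22%, 1.39% and 0.0521% for Grb10, Plagl1, Inpp5f and Impact.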

How the data were processed

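RRBS was analysed in 16 libraries, 2 for each of 8 conditions, which were taken from the sample labels. Per the labels and the study's methods, the authors trimmed the reads (CASAVA 1.8.2, Trim Galore 0.2.8), aligned them to mm9 with Bismark 0.7.9 and deposited the count of reads over each CpG cytosine with the percent methylated and unmethylated, without normalization and with at least 10 reads. Replicates were not pooled. The libraries had 18919219 to 40519010 reads on CpGs. At 10 reads a CpG moves in steps of 10 points.

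Methylated reads were computed from count and percent, and strands were summed. An ICR level needed at least 2 CpGs. The members, lists and tests were chosen with earlier results of these data known. CpGs named singly were the lowest and highest of the ICR, those called, and a few named after their values were seen. Tests were tried on simulated reads. Alternatives were other minimums of reads and of difference, single cytosines, a cap on reads, the narrower Grb10 region of the study's first supplementary list, read-weighted levels, CpGs common to all libraries, limma 3.58.1, Fisher's exact test, a block by replicate number, and each replicate removed in turn. After the data were seen, leaving out CpGs in CCGG, the window of the shared start and common CpGs for the tested ICR differences were added. Reference sequence and annotation were NCBIM37 (mm9) and GENCODE M1. The 1320646 CpGs of the files all lie on CG in that reference. Work was done in Python 3.11.15 and R 4.3.3.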

Additional observations from a re-analysis of the deposited data

How the results depend on the processing

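The differences of the ICR with OP-mESCs or YP-mESCs kept their direction in every alternative, and the fall in OP-mESCs against YP-mESCs ranged from -32.5 to -29.1 points. OP-S33Y #2 against OP-mESCs moved by more than the spread between replicates without CpGs in CCGG, to 52.2 points. The tested ICR differences passed in no alternative but one that leaves out a replicate, and their signs changed with the setting where they were near 0. For mESC shβcat #1 against mESC shCtrl, 0.22 points became -1.45 at 20 reads, -0.27 with single cytosines and -1.20 in the narrower Grb10 region. With limma and with the replicate block it was -0.40, the same value, since both settings took the difference with libraries at equal weight. It was -0.0174 without CpGs in CCGG and -2.36 over CpGs covered in all 16 libraries. The last setting moved EB shβcat #1 against EB shCtrl to 4.63 points and EB shCtrl against mESC shCtrl to -5.58 (both with an adjusted p of 0.351, quasi-binomial F test). Leaving out one replicate, with the CpGs of the main setting, gave -4.39 to 4.05 points for mESC shβcat #1 against mESC shCtrl. It gave 0.804 to 2.88 for EB shβcat #1 against EB shCtrl and -2.51 to 1.82 for EB shCtrl against mESC shCtrl. For EB shβcat #1 against mESC shβcat #1 the range was -2.83 to 6.24, and for OP-S33Y #2 against OP-S33Y #1 -1.73 to 9.16. The count of CpGs called for EB shCtrl against mESC shCtrl went from 1 to 2 at 20 reads, with the CpG at 11938628 added, and to 0 to 1 with one replicate left out. Without EB shCtrl replicate 2 or mESC shCtrl replicate 1 it was 0. For EB shβcat #1 against mESC shβcat #1 it went from 0 to 9 with a difference over 10 points, to 10 with no minimum and to 0 to 3 with one replicate left out, 3 without EB shβcat #1 replicate 2. The cause was not tested. The deviations of libraries with the same replicate number were nearly uncorrelated across CpGs (r from -0.034 to 0.053), and the replicate block changed no call. Such an r over single CpGs cannot show that the numbers do not pair the libraries. In EBs, CpGs in CCGG with neighbours of low methylation had means of 10.2% (shCtrl) and 10.7% (shβcat #1) in replicate 1. In replicate 2 of the EBs they had 13.7% and 14.1%. Libraries with 10 to 30 reads on a CpG limit single CpGs to large differences.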
